A study of Mus musculus with 45 samples.

Results

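Hepatic stellate cells (HSCs) lie between the hepatocytes and the endothelium of the liver and store vitamin A as retinyl esters while they are quiescent. On injury, or when they are placed on plastic, they lose these stores and turn into contractile myofibroblasts that lay down collagen. Much of the expression programme of the quiescent cell is lost along the way. The 150 table rows described here are those whose level fell furthest in all 3 models of this transition, Western diet and fructose feeding (WD), CCl4 treatment and culture (in vitro transdifferentiation, IVT).

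A row stands for 1 gene, and rows were matched across the 3 tables by line. For each of 23999 rows, the level was log2(mean CPM + 1), where CPM is the count of a row relative to the total count of its library, and the mean is taken over the libraries of a group. The change in a model was the level at its latest time (24 weeks of WD, 8 weeks of CCl4 or 12 days of IVT) minus the level of its own control. Of the 13336 rows with a level of at least 3 in any of the 13 groups, the 150 with the largest smallest fall were taken. The control and the latest group of each model therefore chose the rows, and values that rest on these groups are given as a description. The groups in between were not used in the choice, and the time of the loss is read from them.

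Rows are given by line number, counted from the first row of values, because the identifiers printed beside the counts cannot be those of the counted genes. The counts listed at B2m, which encodes the light chain of MHC class I, were between 0 and 1 in all libraries. Those listed at Alb, which encodes albumin, were between 257 and 2913. Markers of HSCs or of other liver cells could therefore not be checked, and no gene, function or sequence is given for a row. Across all rows, the levels of the 3 controls had rank correlations between 0.933 and 0.968, which describes how alike the lines of the 3 tables are.

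All mice were labelled C57BL6/J, and the study used males, which its methods name C57BL/6JBomTac. In the WD experiment, 4 libraries came from chow-fed mice with plain drinking water (WD 0weeks) and 4 each from mice given Western diet with fructose in the water for 12, 16 or 24 weeks, all killed at the same age. In the CCl4 experiment, 4 libraries came from mice given corn oil (CCl4 0weeks) and 3, 4 and 3 from mice given CCl4 in corn oil by gavage for 1, 4 and 8 weeks. In IVT, HSCs of healthy mice were kept for 2 hours (day 0) or cultured in serum-containing medium for 1, 4, 8 or 12 days, with 3 libraries at each time. All cells were sorted by the autofluorescence of their retinoids, so that cells that had lost these stores could be missed in the mouse experiments, and day 0 cells had been sorted in the same way. Total counts per library were between 2318311 and 7576527, and a count of 3 was between 0.396 and 1.29 CPM.

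At the latest time, the fall of the 150 rows was smallest in WD and deepest in IVT. The median change was −1.63 in WD (range −3.98 to −1.28), −2.06 in CCl4 (−6.77 to −1.29) and −2.99 in IVT (−8.54 to −1.32), all on the log2(CPM + 1) scale. Over the 13336 rows the medians were 0.06, 0.12 and 0.32. WD set the smallest of the 3 falls in 105 rows, and IVT the deepest in 99. The last 2 rows inside the list had a smallest fall of 1.29 and 1.28, and the next 2, which were left out, had 1.28 each. In bulk RNA of sorted cells, fewer cells that express a gene and less RNA per cell cannot be told apart.

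**Figure D1:**
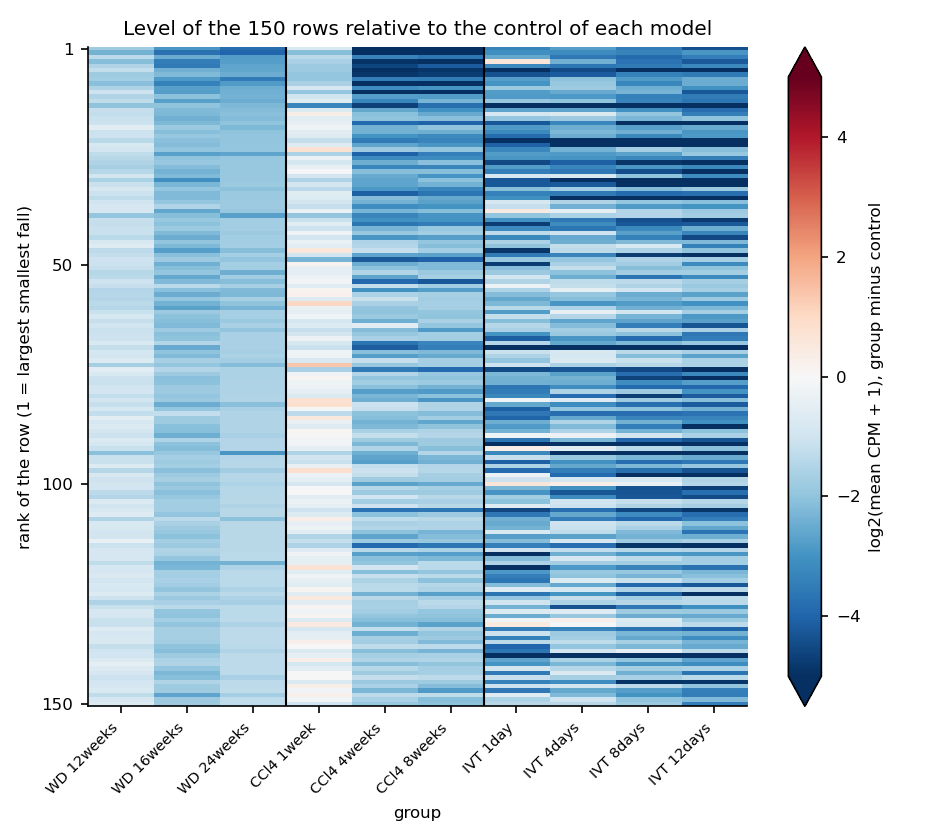
Level of each of the 150 rows (one line each, ordered by rank) relative to the control of its model, in every later group; colour gives the difference in log2(mean CPM + 1), blue lower and red higher than control. The CCl4 1week column is pale for most rows while the 2 later CCl4 columns are blue, and the IVT columns differ from row to row already on day 1.

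Before activation, the median level of the rows was above that of all rows. A row low in the controls could not fall far, so this follows in part from the choice. Their median level was 6.49 in chow-fed mice, 6.29 in vehicle-treated mice and 5.69 on day 0 of IVT, against 5.12, 5.19 and 4.78 over the 13336 rows. The level on day 0 was thus lower than in chow-fed mice by 0.57 at the median row, against 0.23 over all rows, and these cells came from a separate isolation. The rows held between 2.53% and 2.78% of all counts in the chow libraries and between 0.348% and 1.26% in the 24-week WD libraries. In CCl4 their share went from between 2.33% and 2.53% with vehicle to between 0.426% and 0.575% at 8 weeks. In IVT it went from between 1.86% and 2.07% on day 0 to between 0.246% and 0.254% on day 12.

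Row 22868, the highest of the 150 by its level averaged over the 3 controls, shows the time course of the loss in each model. In chow-fed mice it was at 1006, 1043, 979 and 1055 CPM, and after 12 weeks of WD at 286, 491, 511 and 578 CPM. After 16 weeks it was at 273, 373, 46.7 and 142 CPM, and after 24 weeks at 432, 398, 177 and 103 CPM. All WD-fed libraries were below all chow-fed ones, and the 3 WD times overlapped. With CCl4, row 22868 went from 877, 1027, 983 and 914 CPM with vehicle to 513, 455 and 547 CPM at 1 week. It was then at 59.0, 111, 251 and 192 CPM at 4 weeks and at 184, 173 and 195 CPM at 8 weeks. In IVT it was at 1042, 1061 and 1241 CPM on day 0 and at 50.2, 63.1 and 60.9 CPM on day 1, so that most of the loss in culture came within the first day.

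To place the loss in time, the share of the full fall reached at an intermediate time was computed for each row as the fall from control to that time over the fall from control to the latest time. A share of 100% means that the level of the latest group was already reached. The median share was 61.5% at 12 weeks and 119.7% at 16 weeks of WD. It was 23.2% at 1 week and 97.5% at 4 weeks of CCl4. In IVT it was 80.9% on day 1, 74.5% on day 4 and 91.9% on day 8. At the median row, the level at 16 weeks of WD was thus below that at 24 weeks, the level at 4 weeks of CCl4 was close to that at 8 weeks, and most of the fall in culture was present on day 1.

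**Figure D2:**
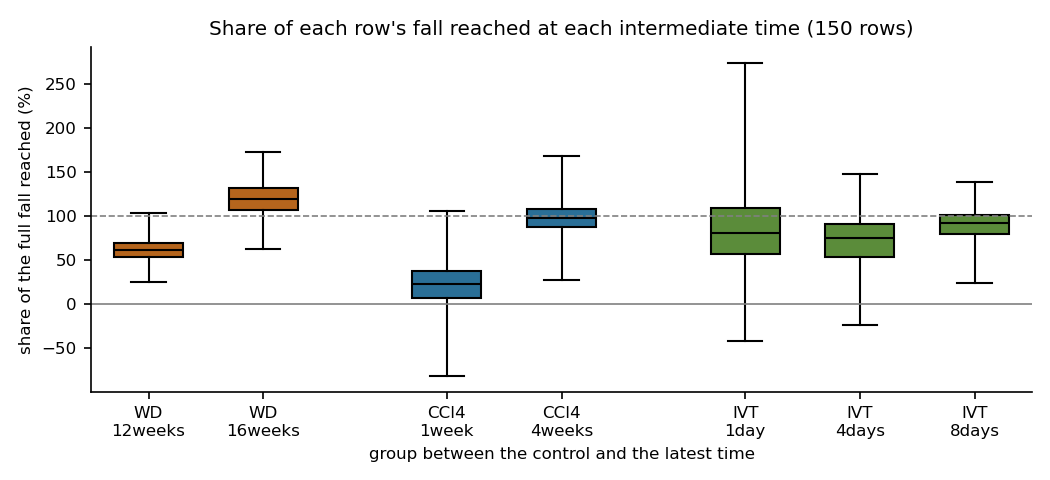
Share of the fall from control to latest time reached at each intermediate group (y axis, %), for the 150 rows; boxes give quartiles and median, whiskers the lowest and highest row, and the dashed line marks 100%. Shares at CCl4 1week run from −82.0% to 106.0% with a median of 23.2%, and those on IVT day 1 from −41.6% to 274.6% with a median of 80.9%.

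The first time at which at least 50% of the fall was reached differed between models. It was 12 weeks in 124 rows and 16 weeks in the other 26 in WD. In CCl4 it was 1 week in 13 rows, 4 weeks in 136 and 8 weeks in 1. In IVT it was day 1 in 121 rows, day 4 in 13, day 8 in 14 and day 12 in 2. The most frequent combination, 12 weeks of WD, 4 weeks of CCl4 and day 1 of IVT, held 88 of the 150 rows. Another 11 rows had reached 50% at the first time in all 3 models. These counts were not recomputed without single libraries, and in WD they lean on the 12-week library A. The median share at 12 weeks of WD was 51.0% without that library and 44.6% without all libraries lettered A, which is near the 50% limit.

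By the share of the fall reached at the first time, rows early in one model did not rank as early in another. Across the 150 rows, this share had a rank correlation of −0.01 between WD and CCl4. It was −0.10 between WD and IVT and 0.05 between CCl4 and IVT. For the fall in level from control to the first time, the rank correlation was 0.19 between WD and CCl4. It was 0.06 between WD and IVT and 0.18 between CCl4 and IVT. The size of the fall at the latest time had a Pearson correlation of 0.59 between WD and CCl4 (rank correlation 0.39), 0.23 between CCl4 and IVT (0.22) and 0.05 between WD and IVT (0.07). These are descriptions over rows that share their libraries and were chosen on these falls.

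Neighbouring times were compared by the quasi-likelihood test of edgeR over all rows of an experiment, with Benjamini-Hochberg adjustment. A row was called when its false discovery rate (FDR) was 0.05 or less and its log2CPM, averaged over the compared groups, was above 2. Beside each first count stands the percentage of all tested rows that were called in the same direction. The steps from 12 to 16 weeks of WD, from 1 to 4 weeks of CCl4 and from day 1 to day 4 and day 4 to day 8 of IVT use no group that chose the rows. All 150 rows were tested in WD and CCl4, and 146 in IVT, where 4 did not pass the filter on low counts.

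**Figure D3:**
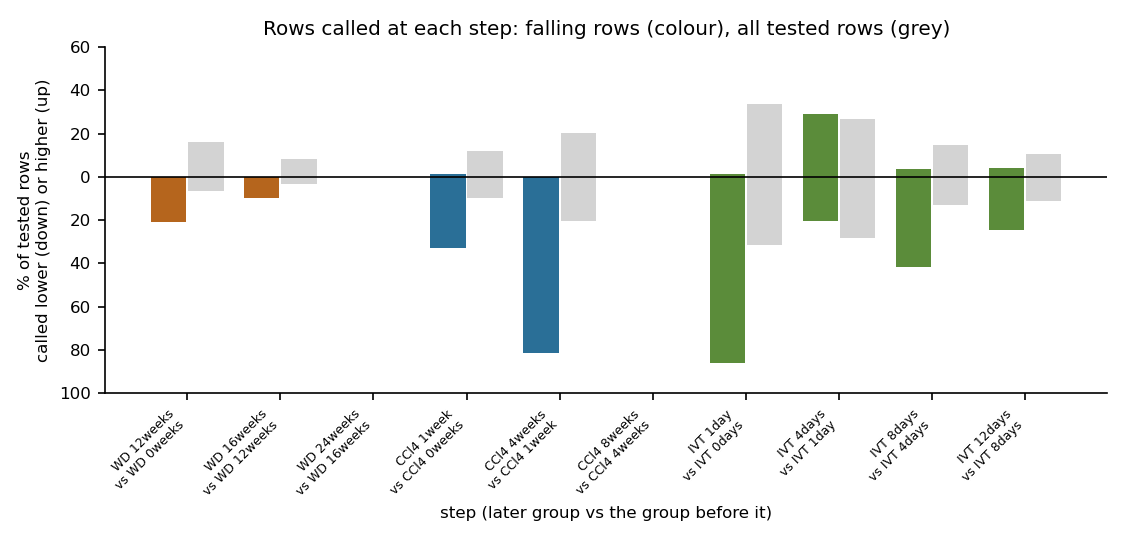
Percentage of tested rows called higher (upwards) or lower (downwards) at each step between neighbouring times, for the 150 rows (colour) and for all tested rows (grey). The downward bars of the 150 rows are long at CCl4 4weeks vs 1week (81.3%) and IVT 1day vs 0days (86.3%), and no bar is drawn for the last step of WD or CCl4, where 0 rows were called.

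In WD, part of the loss was present at 12 weeks, and most rows had their lowest group mean at 16 weeks, without a called difference from 24 weeks. From chow to 12 weeks, a step that uses the control that chose the rows, 31 of the 150 rows were called lower and 0 higher (6.54% and 16.1% of all tested rows). At an unadjusted p under 0.05, 67 rows were lower and 0 higher (13.1% and 27.0% of all tested rows), and DESeq2 called 51 lower and 0 higher (10.6% and 16.8%). In 132 rows all 4 libraries at 12 weeks were below all 4 chow libraries (17% of the 13336 rows). The 31 calls moved with single libraries, as their number was 11 without the 12-week library A, 17 without the 12-week library B and 58 without the 16-week library C. The calls numbered 130 when only the chow and 12-week groups entered the fit.

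The step from 12 to 16 weeks brought a further fall of about the same size. The median fitted log2FC of the 150 rows was −1.06, against −0.10 over all tested rows, and the group mean was lower in 147 rows and higher in 3 (46.1% of the 13336 rows were higher). At the FDR, 15 rows were called lower and 0 higher (3.4% and 8.29% of all tested rows). At an unadjusted p under 0.05, 78 rows were lower and 0 higher (15% and 15.1% of all tested rows), and DESeq2 called 35 lower and 0 higher (6.05% and 10.5%). All libraries at 16 weeks were below all at 12 weeks in 20 rows (4.67% of the 13336 rows). The 15 calls fell to 0 when all libraries lettered C were left out, and to 0 when all lettered D were left out. They were 4 without the 16-week library C alone and also 4 without the 16-week library D, 9 without the 12-week library B and 29 without the 12-week library A. With only the 2 compared groups in the fit it was 4.

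Row 9910 had the largest called fall of this step among rows whose libraries did not overlap. It was at 43.3, 30.8, 32.7 and 61.8 CPM in chow-fed mice and at 8.6, 8.25, 16.0 and 23.5 CPM at 12 weeks. At 16 weeks it was at 5.43, 3.65, 0.18 and 1.79 CPM, all below the 12-week libraries (log2FC −2.42 ± 0.67 SE, edgeR FDR 0.028). At 24 weeks it was at 8.36, 11, 2.11 and 2.34 CPM, a range that overlaps both earlier times. Row 19545 had reached the smallest share of its fall at 12 weeks, 24.5%, among the rows above 10 CPM in every control library. It was at 21.0, 31.7, 35.5 and 37.5 CPM at 12 weeks and at 17.9, 10.7, 4.51 and 15.5 CPM at 16 weeks (log2FC −1.40 ± 0.36 SE, edgeR FDR 0.0185). The highest such share, 94.4%, was that of row 10872, at 6.62, 9.48, 14.1 and 12.2 CPM at 12 weeks and 23.0, 10.1, 5.07 and 1.72 CPM at 24 weeks. In chow-fed mice it was at 37.2, 10.2, 23.8 and 41.2 CPM, a range that overlaps both. Its fall from chow was not called at 12 weeks (edgeR FDR 0.148) or at 24 weeks (edgeR FDR 0.0858).

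No further loss was detected after 16 weeks of WD. From 16 to 24 weeks edgeR called 0 of the 150 rows (0.0% of all 13510 tested rows in each direction), and DESeq2 called 0 as well (0.0%). At an unadjusted p under 0.05, 1 row was lower and 3 were higher (0.592% and 1.78% of all tested rows). The group mean was higher at 24 than at 16 weeks in 123 rows (52.3% of the 13336 rows), with a median difference in level of 0.32. The order of these 2 times rested in part on single libraries. Without the 16-week library C the mean was higher at 24 weeks in 88 rows and the median share reached at 16 weeks was 103%, and without the 24-week library B these values were 93 rows and 104%. The lowest group mean of the 4 WD groups was at 16 weeks in these 123 rows and at 24 weeks in the other 27.

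The range between libraries within the WD groups was at least as wide as these steps, and most rows had the same lowest library. The median of the 150 rows, as log2(CPM + 1), was between 6.32 and 6.62 in the chow libraries. At 12 weeks it was 4.79, 5.38, 5.87 and 5.80 in libraries A to D, at 16 weeks 4.88, 5.09, 3.12 and 4.21, and at 24 weeks 5.31, 5.45, 4.19 and 3.80. Among the 4 libraries of its group, library A was the lowest in 130 of the 150 rows at 12 weeks, library C in 145 rows at 16 weeks and library D in 125 rows at 24 weeks. Of all 13336 rows, 41.7%, 23.2% and 31.0% were lowest in the same libraries. Libraries C and D were below A and B at both 16 and 24 weeks, and same-letter libraries deviated together between these times (correlations of 0.32 to 0.69). A factor shared by letter and a difference between mice cannot be told apart here.

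**Figure D4:**
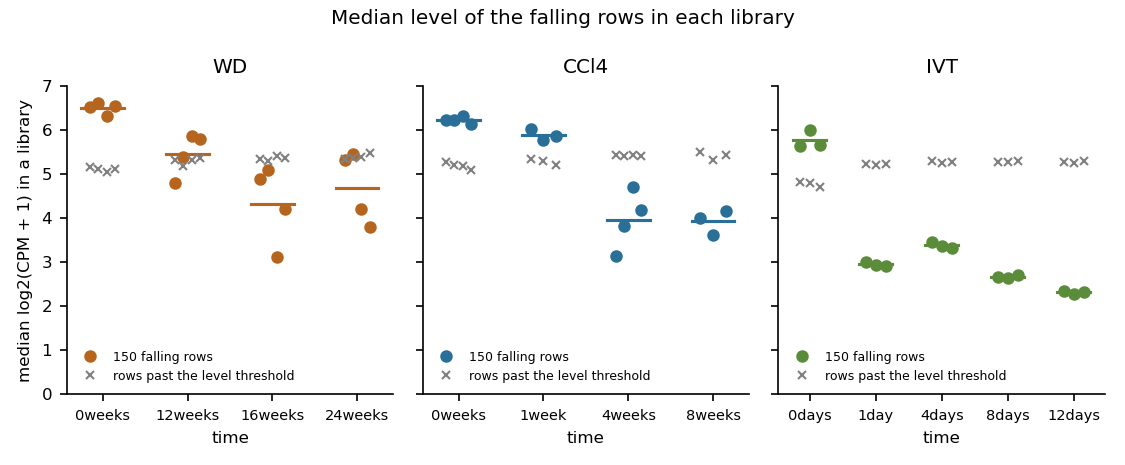
Median log2(CPM + 1) of the 150 rows (coloured points) and of the 13336 rows past the level threshold (grey crosses) in every library; horizontal lines are group means of the coloured points. WD libraries at 16 weeks spread from 3.12 to 5.09, while the IVT libraries of the same time lie close together from day 1 on (2.92 to 3.00 on day 1).

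Another group of rows was higher in the same libraries. These 9958 rows were chosen by a level under 1 in all 3 controls. Their share of counts could hardly fall from there, so its rise after control is only a description. They held between 0.0516% and 0.0635% of the counts in chow-fed mice. At 12 weeks they held 1.11% in library A and between 0.523% and 0.617% in the others. At 16 weeks they held 2.25% in library C, 1.93% in D, 1.20% in A and 0.936% in B, and at 24 weeks 2.24% in D, 1.84% in C, 0.884% in A and 0.798% in B. Within each WD time, the library with the lowest median of the 150 rows was the one with the highest share of counts in these rows. With CCl4 their share was between 0.0687% and 0.0845% with vehicle, between 0.299% and 0.409% at 1 week, between 0.868% and 1.53% at 4 weeks and between 1.36% and 1.67% at 8 weeks. In IVT it was between 0.0783% and 0.113% on day 0 and between 1.17% and 1.21% on day 12. Which cells these reads came from could not be read from unnamed rows, and their part in the fall of the 150 rows was not tested.

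With CCl4, the smaller part of the loss was present after 1 week, with a median share of 23.2%. From vehicle to 1 week, 49 of the 150 rows were called lower and 2 higher (9.72% and 11.8% of all tested rows, with the control that chose the rows). The group mean at 1 week was below vehicle in 122 rows and above it in 28 (51.6% of the 13336 rows were above). Under 25% of the fall had been reached in 78 rows. Row 22881, with a share of −62.8%, was at 22.9, 16.9, 31.0 and 37.5 CPM with vehicle and at 78.1, 41.3 and 50.1 CPM at 1 week, all above the vehicle libraries. This rise was not called (log2FC 1.04 ± 0.38 SE, edgeR FDR 0.0547). Row 22881 was then at 4.14, 4.83, 6.21 and 16.9 CPM at 4 weeks, below every 1-week library (log2FC −2.93 ± 0.41 SE, edgeR FDR 7.13e-05). At the other end, row 6337 had reached 106.0% of its fall, at 23.3, 11.2, 20 and 26.0 CPM with vehicle and 5.02, 5.62 and 8.13 CPM at 1 week. It was lower still at 4 weeks, at 1.93, 3.52, 3.73 and 2.25 CPM. At 8 weeks, which set the full fall, it was at 3.61, 9.49 and 7.03 CPM. The count of 49 was 22 without replicate B and 88 when only the 2 compared groups entered the fit.

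The step from 1 to 4 weeks of CCl4 carried most of the loss. Of the 150 rows, 122 were called lower and 0 higher (20.4% and 20.2% of all tested rows). At an unadjusted p under 0.05, 145 rows were lower and 0 higher (25.4% and 26.8% of all tested rows), and DESeq2 called 122 lower and 0 higher (19.7% and 23.5%). In 141 rows all 4 libraries at 4 weeks were below all 3 at 1 week (19.4% of the 13336 rows). The median log2FC was −1.89, against 0.03 over all tested rows. Leaving out any replicate letter gave between 116 and 122 called rows.

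Row 11184 had the deepest called fall of this step and ranks first of the 150. It was at 106, 103, 139.9 and 80.2 CPM with vehicle and at 78.3, 54.0 and 55.6 CPM at 1 week. At 4 weeks it was at 0.276, 0, 0.414 and 0.676 CPM, which are 1, 0, 2 and 3 reads, and its libraries at 8 weeks held 1, 0 and 2 reads. The fall from 1 to 4 weeks was called by edgeR (FDR 1.5e-08). Its fitted size depends on the few reads left and is not given. In WD the same row was at 128, 163, 124 and 156 CPM in chow-fed mice, at 30.9, 34.2, 56.9 and 40.3 CPM at 12 weeks, at 29.0, 32.0, 0.721 and 11.3 CPM at 16 weeks and at 6.73, 28.4, 2.11 and 0.937 CPM at 24 weeks. The step from 12 to 16 weeks did not pass the test in this row (log2FC −1.19 ± 0.82 SE, edgeR FDR 0.334).

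Row 11062, the second by rank, lost its reads in 2 stages. It was at 51.2, 49.9, 51.9 and 52.8 CPM with vehicle and at 14.3, 10.2 and 8.98 CPM after 1 week of CCl4. At 4 weeks its 4 libraries held 0, 0, 4 and 4 reads, and at 8 weeks its 3 libraries held 4, 1 and 1. The fall from 1 to 4 weeks passed the FDR threshold of edgeR (4.84e-06), with the mean log2CPM below the limit for a call. Row 16244, the sixth by rank, was at 54.0, 50.6 and 48.8 CPM at 1 week and at 1.38, 3.3, 6.21 and 4.51 CPM at 4 weeks, against 186, 200.1, 169 and 179.8 CPM with vehicle.

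Row 9370 shows a loss that followed a week without one. It was at 290.4, 363, 281 and 178 CPM with vehicle and at 437, 448 and 336 CPM after 1 week of CCl4, values that overlap. At 4 weeks it was at 28.4, 114, 209 and 149 CPM, all below the 1-week libraries (log2FC −1.82 ± 0.42 SE, edgeR FDR 0.00271).

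From 4 to 8 weeks of CCl4, edgeR called 0 of the 150 rows (0.0% of all 13513 tested rows in each direction). At an unadjusted p under 0.05, 4 rows were lower and 4 higher (5.59% and 7.9% of all tested rows), and DESeq2 called 2 lower and 0 higher (0.533% and 1.52%). The lowest group mean of the 4 CCl4 groups was at 4 weeks in 64 rows and at 8 weeks in 86. The group mean fell or stayed at every step in 65 rows in CCl4, against 24 in WD and 29 in IVT, and in 2 rows in all 3 models. At 4 weeks the median of the 150 rows was 3.15, 3.82, 4.70 and 4.18 in libraries A to D, and library A was the lowest in 112 rows (36.6% of all 13336 rows).

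In culture, the loss on day 1 was large and was followed by different courses. From day 0 to day 1, 126 of the 146 tested rows were called lower and 2 higher (31.7% and 33.6% of all tested rows, with the control that chose the rows). On day 1, 43 rows were at or below their day 12 level, and 5 were above day 0 (59.1% of the 13336 rows). Libraries of the same culture time were close to each other, with medians of the 150 rows of 2.92 to 3.00 on day 1, 3.32 to 3.45 on day 4, 2.63 to 2.70 on day 8 and 2.27 to 2.35 on day 12, against 5.64 to 6.0 on day 0. The study describes its cultures as technical triplicates and the RNA it sequenced as coming from biological replicates, and which holds is not settled. The tests in IVT may describe wells rather than separate preparations. In pairs of libraries of the same time, the variance relative to that of counting alone was between 1.08 and 1.98 on days 1, 4, 8 and 12. On day 0 it was between 4.52 and 15.4, and day 0 shared its estimate of the spread with the later days. The median change over all rows from day 0 to day 12 was 0.40 with library totals and 0.09 after TMM scaling, and no count of called rows in IVT moved by more than 1.5 times with this choice.

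Between day 1 and day 4 the rows split. Of the 146 tested rows, 30 were called lower and 42 higher, which are 20.5% and 28.8% against 28.3% and 26.9% of all tested rows. The median log2FC was 0.13, against 0.01 over all tested rows. Only the 96 rows with a mean log2CPM above 2 could be called at this step. Both shares were close to or below those of all rows, but this limit may hold them down. Rows were called in both directions, and no common direction was seen at this step.

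Row 9370 had the largest called rise of this step, after the deep fall of day 1. It was at 607, 665 and 509 CPM on day 0 and at 19.5, 18.8 and 19.5 CPM on day 1. On day 4 it was at 242, 238 and 230.1 CPM (log2FC 3.63 ± 0.10 SE, edgeR FDR 1.82e-14). It was then at 187, 199 and 216 CPM on day 8 and at 143, 161 and 137 CPM on day 12, still far above day 1. Row 7167, whose share on day 1 was 274.6%, had a like course, with 89.3, 128 and 92.2 CPM on day 0, 6.85, 9.63 and 6.03 CPM on day 1 and 56.2, 52.4 and 51.3 CPM on day 4 (log2FC 2.83 ± 0.16 SE, edgeR FDR 1.23e-10).

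The 3 rows with the highest level averaged over the controls differed at this step. Row 18346 was at 976, 1033 and 1177 CPM on day 0, at 92.4, 92.9 and 97.4 CPM on day 1 and at 359, 346 and 372 CPM on day 4, a rise that passed the test (log2FC 1.94 ± 0.08 SE, edgeR FDR 1.54e-12). Row 12860 was at 868, 1044 and 869.6 CPM on day 0 and rose as well, from 161, 171 and 172 CPM on day 1 to 323, 326 and 331 CPM on day 4. Row 22868 was at 57.6, 55.7 and 63.6 CPM on day 4, within the range of day 1 apart from 1 library (log2FC 0.03 ± 0.10 SE, edgeR FDR 0.78).

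Row 7147 had the largest called fall at this step and at the next one. It was at 736, 607 and 826 CPM on day 0 and still at 587, 566 and 559.5 CPM on day 1. On day 4 it was at 50.8, 43.8 and 50.4 CPM (log2FC −3.55 ± 0.11 SE, edgeR FDR 4.38e-14) and on day 8 at 4.31, 6.01 and 6.34 CPM (log2FC −3.11 ± 0.16 SE, edgeR FDR 1.39e-10). On day 12 it was at 2.22, 2.56 and 2.25 CPM. The 3 libraries of each day were below all those of the time before.

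A few rows were higher on day 1 than on day 0. Row 11586, with the lowest share on day 1 (−41.6%), was at 101, 96.9 and 99.5 CPM on day 0 and at 148, 147 and 153 CPM on day 1. It was at 129.9, 118 and 130.1 CPM on day 4, 73.3, 69.5 and 82.6 CPM on day 8 and between 36.0 and 37.0 CPM on day 12. Row 6781, the fourth of the 150 by rank, was at 28.0, 41.5 and 37.4 CPM on day 0 and at 58.3, 54.9 and 51.1 CPM on day 1, and then at 5.85, 6.95 and 4.99 CPM on day 4 (log2FC −3.19 ± 0.16 SE, edgeR FDR 1.62e-11).

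**Figure D5:**
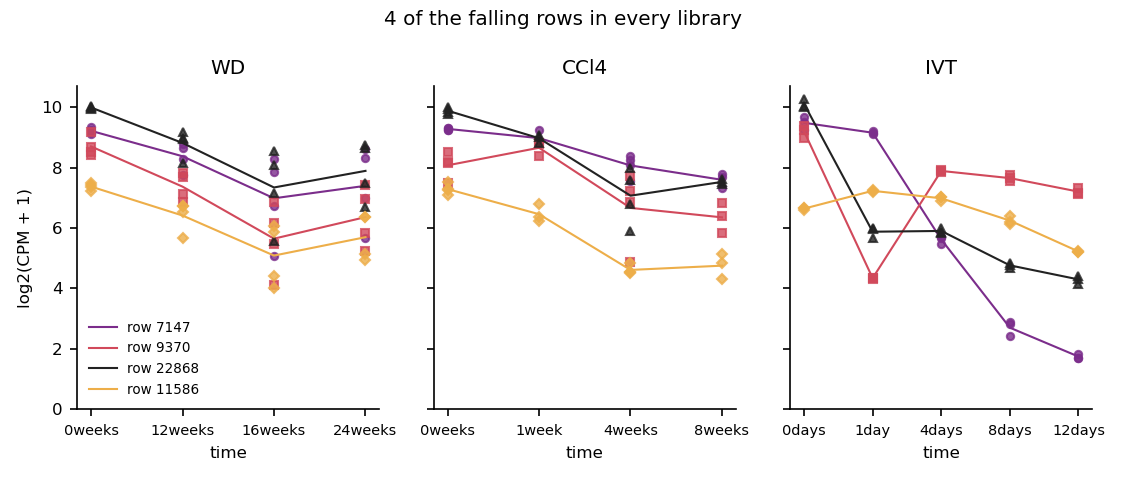
Log2(CPM + 1) of 4 of the 150 rows in every library (points) with lines through group means, by time in the 3 models. On IVT day 1, row 22868 and row 9370 have fallen while row 7147 and row 11586 have not or hardly done so, and row 9370 rises again by day 4. At the latest time of WD and CCl4, the means of all 4 rows are below control.

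From day 4 to day 8 the rows fell again. Of the 146 tested rows, 61 were called lower and 5 higher, which are 41.8% and 3.42% against 13.1% and 14.7% of all tested rows. The median log2FC was −0.72, against 0.00 over all tested rows. In 99 of the 150 rows all 3 libraries on day 8 were below all 3 on day 4 (29.2% of the 13336 rows). Only the 93 rows with a mean log2CPM above 2 could be called at this step.

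Row 16053 had the largest called rise from day 4 to day 8. It was at 171, 113 and 145 CPM on day 0, at 5.48, 6.51 and 6.18 CPM on day 1, at 6.8, 6.08 and 8.21 CPM on day 4 and at 10.1, 14.4 and 14.7 CPM on day 8 (log2FC 0.90 ± 0.20 SE, edgeR FDR 0.00246). It stayed far below day 0, at 11.2, 12.1 and 11.5 CPM on day 12.

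From day 8 to day 12, a step that uses a group that chose the rows, 36 rows were called lower and 6 higher (11.3% and 10.7% of all tested rows). The lowest group mean of the 5 IVT times was on day 12 in 79 rows, on day 1 in 33, on day 8 in 23 and on day 4 in 15. By day 12, no library held more than 3 reads in 19 rows, and 4 rows had no read in any library. At the latest time of CCl4 and WD, 7 rows and 1 row had no library above 3 reads.

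Both groups of the comparison from control to latest time chose the rows, so the following counts describe the choice and test nothing. From control to latest time, 135 of the 150 rows were called lower in WD, 141 in CCl4 and 127 of 146 in IVT (16.4%, 23.6% and 32.9% of all tested rows). The last row inside, row 1518, was at 695, 629, 680.3 and 677 CPM in chow-fed mice and at 375, 379, 176 and 172 CPM after 24 weeks of WD. The first row outside, row 13003, was at 1748, 1688, 1961 and 1747 CPM and at 1137, 1027, 513 and 266 CPM in the same groups.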

How the data were processed

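Polyadenylated RNA of sorted HSCs was sequenced in 45 libraries of 13 groups. The authors aligned the reads to mm10 with STAR, counted reads on exons with HOMER on both strands, with 1 transcript per gene and at most 3 reads per position, and deposited raw counts. These counts were used without change. Aligner versions are not given in the sources used here. The header commands of the 3 tables name the same source libraries, so columns were assigned by their titles, and 0 columns were left unused. Mouse libraries were taken as separate mice. For IVT the study speaks of technical triplicate cultures and of biological replicates for sequencing, so p-values there may measure technical spread.

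The 150 rows, the lists and the tests were chosen with earlier results of these data known. CPM used column totals, with a pseudocount of 1. Tests used edgeR 4.0.16 (R 4.3.3) with TMM, filterByExpr and the quasi-likelihood test, all groups of an experiment in 1 fit, and an FDR of 0.05. DESeq2 1.42.0, DESeq2 size factors, library totals, no filter, only the compared groups, the replicate letter as a block, other pseudocounts and level thresholds, and leaving out replicates were alternatives. Tables and figures were made with Python 3.11.15.

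Rows named are the 6 highest by rank, the last inside and the first outside the list, the 3 with the highest level averaged over the controls, the largest called change in each direction without overlap at each step that used no group of the choice, and the lowest and highest share reached at the first time among rows with at least 10 CPM in every control library.

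Replicate letters come from the sample labels, with no statement that they pair samples. Same-letter libraries deviated together in every pair (correlation over 0.1) from 16 to 24 weeks of WD (0.32 to 0.69) and from vehicle to 1 week of CCl4 (0.14 to 0.24). On simulated counts with 200 rows changed 4-fold, the test recovered 95.0% for 12 to 16 weeks of WD (13401 rows tested), 96.5% for 1 to 4 weeks of CCl4 (13312) and 95.5% for each of the 2 IVT steps (13295 and 13285). Of the rows called in these simulations, 6.4%, 4.93%, 2.55% and 4.02% were unchanged, in the same order, and recovery of smaller changes was not simulated. In these simulations each row was drawn on its own with a common spread per experiment, and only well-counted rows were changed. Shifts of many rows together in a single library, as seen in WD, were not simulated, so recovery in the real data may be lower. Depth limits rows near 3 counts, and this limit covers counting error only.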

Additional observations from a re-analysis of the deposited data

Results flagged for a closer look

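In groups of 4 libraries, the highest or lowest library of a named row was compared with the other 3 by its gap over the range of the group. Of 126 groups tested, 6 had a library past Dixon's 95% limit, and chance gives about 1 in 20. All values are log2(CPM + 1). At 4 weeks of CCl4, row 6781 was at 1.29 in library C and between 0.287 and 0.351 in the others, a difference of a few reads. Row 13003, the first outside the list, was at 10.4 in vehicle library D against 10.3 in the others, and at 8.45 in library A at 4 weeks of CCl4 against 9.24 to 9.32. Row 6337 was at 0.927 in library C at 16 weeks of WD against 2.47 to 2.76, and at 1.84 in library B at 24 weeks against 1.04 to 1.17. Row 11586 was at 4.84 in library B at 4 weeks of CCl4 against 4.51 to 4.55. Library C at 16 weeks of WD and library A at 4 weeks of CCl4 are also the libraries with the lowest median of the 150 rows in their groups.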

How the results depend on the processing

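Of 197 recomputed values of 20 results, 164 kept within the limit set for no change (1.5 times for counts), 33 moved and 0 reversed. For the median shares the limit differed between results, so these labels do not rank how stable the shares were. The share at 12 weeks of WD (61.5%) counted as kept at 44.6% and at 81.3%. The share at 1 week of CCl4 (23.2%) counted as moved at 24.6%. The count lower from chow to 12 weeks of WD (31) was 51 with DESeq2, 130 with only the compared groups and between 9 and 58 when replicates or single libraries were left out. The count lower from 12 to 16 weeks (15) was 35 with DESeq2, 4 with only the compared groups and between 0 and 29 when replicates or single libraries were left out, being 0 without replicate C or without replicate D. With the replicate block it was 30, but same-letter libraries did not deviate together at this step (correlations of −0.38 to 0.22), and the letters are then only a number. The replicate block moved no other count by more than 1.5 times. The count lower from vehicle to 1 week of CCl4 (49) was 88 with only the compared groups and between 22 and 44 without single replicates. From 4 to 8 weeks (0) it was 2 with DESeq2, 1 without the filter and between 0 and 1 without single replicates. The count higher from day 4 to day 8 of IVT (5) was 9 with only the compared groups and between 2 and 8 without single replicates. The median share at 1 week of CCl4 (23.2%) was 24.6% with a pseudocount of 5 and between 19.6% and 24.2% without single replicates. On day 1 of IVT (80.9%) it was 83.3% with TMM-scaled CPM, 78.8% with a pseudocount of 0.25, 86.9% with a pseudocount of 5 and between 80.0% and 82.5% without single replicates. At 12 weeks of WD (61.5%) it was between 44.6% and 81.3% without single replicates. At 16 weeks it was between 103% and 140.0% without single libraries of 16 or 24 weeks, and the number of rows with a higher mean at 24 weeks was between 88 and 134. These leave-outs were chosen after seeing the data. Between 118 and 149 of the 150 rows were chosen again under the other settings of the rule. The causes of these shifts were not tested.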
